A study of Mus musculus with 5 samples.

Results

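*Ahnak*, 4 annexin genes (*Anxa1*, *Anxa2*, *Anxa3* and *Anxa5*), 3 S100 genes (*S100a6*, *S100a10* and *S100a11*), *Lgals1* and *Vim* were followed through single-cell RNA sequencing of differentiating mouse epiblast stem cells (EpiSCs). The 10 genes were matched by symbol among the 32285 genes listed for each library, and all 10 were found. They were selected on their levels (normalized counts, CPM) in these libraries and on its course over the FGF2 doses, as known from earlier results, so that differences between conditions are descriptions and were not tested. EpiSCs are pluripotent cells derived from the post-implantation epiblast, and 1 wild-type line was used. All cultures were kept for 3 days in N2B27 medium with 1 µM CHIR99201 (Chi, a Wnt pathway agonist) and 8 ng/ml BMP. FGF2 was left out of 1 culture and added to 3 others at 0.75, 3 or 12 ng/ml. The remaining culture received the FGF receptor inhibitor AZD4547 (FGFRi) at 30 nM, and the labels state no FGF2 dose for it. Each condition was 1 library. A difference between conditions therefore cannot be told apart from one between cultures, and all 95% intervals given here cover counting error only.

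Annexins are calcium-dependent proteins that bind acidic phospholipids at the inner face of the plasma membrane and on endosomes. S100 proteins are small EF-hand proteins that mostly work as dimers. S100A10 is an exception that binds no calcium and stays bound to ANXA2, and AHNAK is a giant scaffold protein that associates with this pair at the cell cortex. *Lgals1* encodes galectin-1, which binds β-galactosides, and *Vim* encodes vimentin, the intermediate filament protein of mesenchymal cells.

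Levels are counts of unique molecular identifiers (UMIs) divided by all UMIs, scaled to CPM and summed over the cells of a library that had at least 2500 detected genes and at most 10% mitochondrial UMIs. Between 1696 and 2725 cells per library were retained, 10653 of 15375 barcodes in all, with median depths of 24408 to 29661.5 UMIs. The FGFRi library was the shallowest in retained UMIs (47824660) and 0.75 ng/ml the deepest (81538748). Among retained cells, 7 barcodes occurred in more than 1 library. In summed counts, fewer cells of a type and less RNA per cell cannot be told apart. The 3′ kit counts molecules, and ratios of CPM were taken between libraries or classes of cells and not between genes. The 9 FGF and ERK target genes, which report the activity of the pathway and are not among the 10, served as a check of the labels: their summed level was 89.1 CPM with the FGFRi and 196, 276, 324 and 340.0 CPM from 0 to 12 ng/ml FGF2.

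The 10 genes lie on 6 chromosomes. *S100a11* and *S100a10* are next to each other on the plus strand of chromosome 3, 28.8 kb apart (GENCODE vM21, GRCm38), and *S100a6* and *Anxa5* are on the same chromosome. *Ahnak* (chr19:8989284-9076914) and *Anxa1* (chr19:20373428-20390944) are on chromosome 19. The others are *S100a11* (chr3:93520488-93526287), *S100a10* (chr3:93555080-93564643), *S100a6* (chr3:90612882-90624181), *Anxa5* (chr3:36448923-36475894), *Anxa2* (chr9:69453620-69491795), *Anxa3* (chr5:96793339-96845966), *Lgals1* (chr15:78926725-78930465) and *Vim* (chr2:13573927-13582826). *Anxa1* and *Anxa2* each overlap a listed non-coding gene on the opposite strand (1500015L24Rik and Gm16144), from which their reads cannot be told apart if strand was not used in counting. Pseudogenes of *S100a11* and *Lgals1* are annotated but not listed in the count matrices, and how reads shared with them were treated was not examined.

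A promoter sequence (250 bases before to 50 bases after the start site, RefSeq, GRCm38.p6) was at hand for 7 of the 10 genes, not for *Anxa3*, *S100a10* and *Lgals1*. Each was searched on both strands for an AP-1 site (TGANTCA), a TEAD site (GGAATG), a CArG box, a TATA box (TATAAA), a GC box (GGGCGG) and an ETS site (CCGGAAG). Below, *Anxa2* and *S100a11* are shown because both hold an AP-1 site, *Ahnak* as the gene with the largest ratio between 0 and 12 ng/ml FGF2, and *Vim* as the member whose distribution over cells differs from the others. Capitals mark the matches.
Anxa2 (chr9:69453433-69453732, plus strand): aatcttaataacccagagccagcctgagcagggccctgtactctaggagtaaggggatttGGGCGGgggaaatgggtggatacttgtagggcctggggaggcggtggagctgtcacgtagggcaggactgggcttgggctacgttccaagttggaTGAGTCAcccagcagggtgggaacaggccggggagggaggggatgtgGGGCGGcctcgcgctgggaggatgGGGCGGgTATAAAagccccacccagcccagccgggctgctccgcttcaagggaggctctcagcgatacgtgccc
S100a11 (chr3:93520246-93520545, plus strand): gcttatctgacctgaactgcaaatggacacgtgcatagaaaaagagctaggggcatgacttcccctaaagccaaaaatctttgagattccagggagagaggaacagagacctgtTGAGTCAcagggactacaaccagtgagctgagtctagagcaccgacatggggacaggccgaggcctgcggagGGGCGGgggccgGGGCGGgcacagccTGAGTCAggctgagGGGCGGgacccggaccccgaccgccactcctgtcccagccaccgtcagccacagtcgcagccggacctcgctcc
Ahnak (chr19:8989034-8989333, plus strand): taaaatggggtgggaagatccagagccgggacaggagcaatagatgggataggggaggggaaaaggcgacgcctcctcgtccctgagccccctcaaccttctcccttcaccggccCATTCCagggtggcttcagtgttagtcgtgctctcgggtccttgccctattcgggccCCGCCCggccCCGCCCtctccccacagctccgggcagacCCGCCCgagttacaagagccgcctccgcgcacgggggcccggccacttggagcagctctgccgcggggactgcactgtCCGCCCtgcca
Vim (chr2:13574061-13574360, plus strand): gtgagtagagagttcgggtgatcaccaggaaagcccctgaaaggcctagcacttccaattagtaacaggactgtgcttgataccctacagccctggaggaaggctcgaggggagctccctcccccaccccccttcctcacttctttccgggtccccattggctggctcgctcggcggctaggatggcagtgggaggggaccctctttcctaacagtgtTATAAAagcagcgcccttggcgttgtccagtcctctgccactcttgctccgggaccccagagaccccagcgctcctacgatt

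The AP-1 letters occurred in 2 of the 7 promoters, once in *Anxa2* (positions -95 to -89 from the start site) and at 2 places in *S100a11* (-136 to -130 and -38 to -32), against 7.81% of 32851 promoters of the same length. TATAAA was held by 3 of the 7 (*Vim* and *Anxa1* at -32 to -27, *Anxa2* at -17 to -12), against 13.6% of all promoters. The GC box was found in *Anxa2*, *S100a11* and *Ahnak*, against 35.7%, and the TEAD letters in *Ahnak* and *Anxa1*, against 14.7%. The CArG box was found in *Anxa5*, just after the start site, against 1.63%. The ETS letters, held by 8.86% of promoters, were in none of the 7. The motifs do not overlap one another in the promoters shown. In 7 promoters these counts are descriptions of the sequence and do not say that a factor binds.

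The genes shared a course along the series. All 10 were highest with the FGFRi, as were 41% of the 3514 genes with at least 50 CPM in any library, and 9 of 10 were lowest at 3 ng/ml FGF2, against 19%. Summed, they made up 0.680% of all UMIs with the FGFRi, 0.287% at 0, 0.166% at 0.75, 0.131% at 3 and 0.164% at 12 ng/ml FGF2. No member fell at each of the 4 steps (11% of genes did), since every member was higher at 12 than at 3 ng/ml (as were 55.5% of 2978 genes). The choice of the genes rested on these same levels, so that their place among all genes is not a finding.

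**Figure D1:**
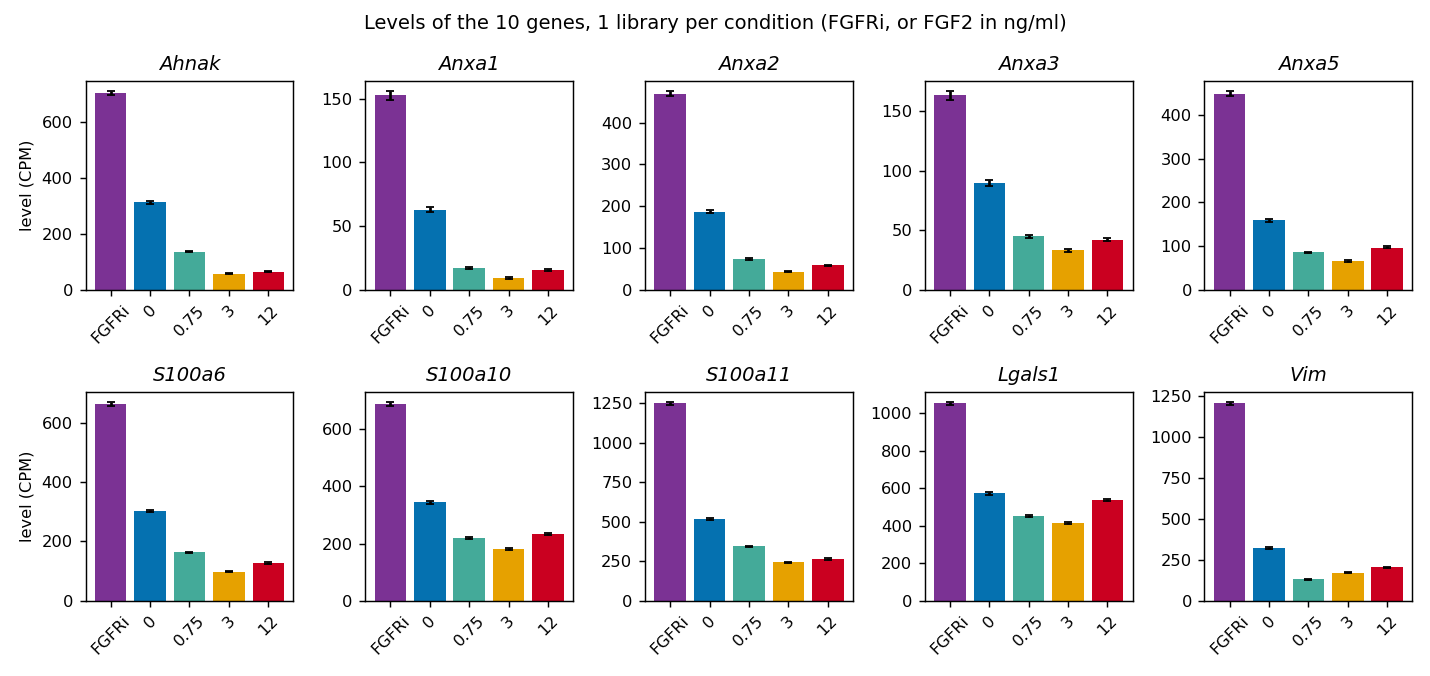
Levels of the 10 genes (CPM) in the 5 libraries, with the exact Poisson 95% interval of each level. Every gene is highest with the FGFRi, *Ahnak* spans 704 to 56.9 CPM, and *Lgals1* spans only 1053 to 412 CPM.

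*Ahnak* had the largest ratio of the 10 between 0 and 12 ng/ml FGF2, 4.86-fold (95% interval 4.71 to 5.03). Its level was 704 CPM with the FGFRi, 313 CPM at 0, 137 CPM at 0.75, 56.9 CPM at 3 and 64.3 CPM at 12 ng/ml FGF2. From the FGFRi to 3 ng/ml the level was lower at each step by a similar factor, 2.25-fold (95% interval 2.21 to 2.29), 2.28-fold (95% interval 2.23 to 2.34) and 2.41-fold (95% interval 2.32 to 2.50). Between 3 and 12 ng/ml the level was 1.13-fold (95% interval 1.08 to 1.18) higher at the higher dose, so that the curve was flat by comparison. It was the single member past 2-fold between 0.75 and 3 ng/ml, where 8 of the 10 reached 50 CPM in either library and 0.299% of genes passed in that direction, and no member passed in the other (0.133%).

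Among the annexins, *Anxa1* and *Anxa2* had the steeper courses and *Anxa3* and *Anxa5* the shallower ones. *Anxa1*, known as a mediator of the resolution of inflammation, was at 152 CPM with the FGFRi, 62.8 CPM at 0, 17.3 CPM at 0.75, 8.95 CPM at 3 and 15.6 CPM at 12 ng/ml FGF2. It was 3.62-fold (95% interval 3.41 to 3.86) lower at 0.75 than at 0 ng/ml, the largest ratio of any member between neighboring FGF2 doses, and 1.75-fold (95% interval 1.58 to 1.93) higher at 12 than at 3 ng/ml. *Anxa2*, the partner of S100A10, was at 469.8 CPM with the FGFRi, 187 CPM at 0, 73.6 CPM at 0.75, 43.4 CPM at 3 and 58.8 CPM at 12 ng/ml FGF2, a ratio of 3.18-fold (95% interval 3.07 to 3.30) between 0 and 12 ng/ml. It fell at each of the first 2 steps by a like factor (2.51-fold and 2.54-fold).

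*Anxa5*, whose protein binds phosphatidylserine and is used to stain dying cells, was at 449 CPM with the FGFRi, 159 CPM at 0, 85.6 CPM at 0.75, 66.01 CPM at 3 and 96.8 CPM at 12 ng/ml FGF2. Its largest step was the first, 2.82-fold (95% interval 2.76 to 2.90), and between 0 and 12 ng/ml it stayed under the 2-fold limit, at 1.64-fold (95% interval 1.59 to 1.69). *Anxa3* was at 163 CPM with the FGFRi, 89.8 CPM at 0, 44.8 CPM at 0.75, 33.1 CPM at 3 and 42.1 CPM at 12 ng/ml FGF2. It was the annexin with the smallest ratio between the FGFRi and 0 ng/ml, 1.81-fold (95% interval 1.75 to 1.88), and just passed 2-fold between 0 and 0.75 ng/ml, 2.01-fold (95% interval 1.92 to 2.09). For all 4 annexins the intervals of the ratios left out 1 in every neighboring pair of libraries, and *Anxa1* and *Anxa5* had the largest ratios of 12 to 3 ng/ml.

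The S100 genes were at 97.5 CPM or more in every condition. *S100a6*, also called calcyclin, was at 663 CPM with the FGFRi, 302 CPM at 0, 162 CPM at 0.75, 97.5 CPM at 3 and 126 CPM at 12 ng/ml FGF2, and fell 2.20-fold (95% interval 2.16 to 2.24) from the FGFRi to 0 ng/ml. *S100a10* was at 689.9 CPM with the FGFRi, 345 CPM at 0, 219 CPM at 0.75, 181 CPM at 3 and 232 CPM at 12 ng/ml FGF2. It stood at the limit of the 2-fold rule in the first comparison, 2.001-fold (95% interval 1.97 to 2.04), and was 1.49-fold (95% interval 1.46 to 1.52) higher at 0 than at 12 ng/ml. *S100a11*, its neighbor on chromosome 3, was at 1249.9 CPM with the FGFRi, 517 CPM at 0, 344 CPM at 0.75, 242 CPM at 3 and 264 CPM at 12 ng/ml FGF2. Here the ratio of the FGFRi to 0 ng/ml was 2.42-fold (95% interval 2.38 to 2.45), and that of 0 to 12 ng/ml 1.96-fold (95% interval 1.93 to 1.999). For these 2 neighboring genes the intervals of the ratios did not overlap in either comparison.

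*Lgals1* and *Vim* took different courses. *Lgals1* had the smallest ratio between 0 and 12 ng/ml, at 1053 CPM with the FGFRi, 573 CPM at 0, 450.1 CPM at 0.75, 412 CPM at 3 and 537 CPM at 12 ng/ml FGF2. The level at 0 was 1.07-fold (95% interval 1.05 to 1.08) that at 12 ng/ml, and the FGFRi library was 1.84-fold (95% interval 1.81 to 1.87) above 0 ng/ml. *Vim* had the largest ratio of the FGFRi to 0 ng/ml of the 10, 3.76-fold (95% interval 3.70 to 3.82), at 1203 CPM with the FGFRi, 320.1 CPM at 0, 131 CPM at 0.75, 168 CPM at 3 and 204 CPM at 12 ng/ml FGF2. Its minimum was at 0.75 ng/ml and not at 3 ng/ml, and it was 1.29-fold (95% interval 1.25 to 1.32) higher at 3 than at 0.75 ng/ml.

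By the rule of size used here (a ratio of at least 2 and at least 50 CPM in either library), 8 of 10 genes were higher with the FGFRi than at 0 ng/ml FGF2, beside 4.6% of all 3283 genes eligible, and none was lower (1.86%). Between 0 and 0.75 ng/ml, 5 of 10 were past the limit, all higher at 0 (1.35% of genes), and none in the opposite direction (0.164%). Between 3 and 12 ng/ml no member and no other gene was (0%). Over the whole dose range, *Ahnak*, *Anxa1*, *Anxa2*, *Anxa3* and *S100a6* were higher at 0 than at 12 ng/ml, 5 of 10 (2.93% of genes), and none was lower (1.21%). With a ratio of at least 1.5, 8 of 10 were, beside 6.4% of genes. Between the FGFRi and 12 ng/ml all members but *Lgals1* were past the limit, higher with the FGFRi (12% of genes), and none was lower (7.33%). The median log2 ratio of the members was 1.22 for the FGFRi over 0 ng/ml and 1.03 for 0 over 12 ng/ml, whereas that of all genes was -0.01 and -0.03. These percentages are given for scale, since the same contrasts served to choose the genes.

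The share of cells in which a gene was seen mostly followed its level. With each cell thinned to 10000 UMIs, so that depth was equal (94 shallower cells left out, 39 of them with the FGFRi), *Ahnak* was seen in 90.1% of cells with the FGFRi and 60.6%, 37.1%, 19.6% and 17.9% from 0 to 12 ng/ml FGF2. The exact binomial 95% intervals of the 50 shares of the members were between 1.38 and 4.84 percentage points wide. Without thinning, these shares were 95.2%, 71.6%, 51.1%, 31.0% and 28.3%. *Anxa1* was seen in the fewest cells, in 39.2% of cells with the FGFRi and 17.03%, 5.69%, 2.51% and 4.01% from 0 to 12 ng/ml FGF2, and *S100a11* with the FGFRi in the most, in 95.8% of cells with the FGFRi and 77.96%, 71.7%, 64.7% and 66.8% from 0 to 12 ng/ml FGF2.

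*Lgals1* was seen in 86.6% of cells with the FGFRi and 70.04%, 69.99%, 66.95% and 69.96% from 0 to 12 ng/ml FGF2. The shares at 0, 0.75 and 12 ng/ml were within each other's counting intervals. How much of a share came from free RNA in the droplets was not measured for any member. *Vim* was seen in 77.7% of cells with the FGFRi and 49.1%, 36.99%, 42.5% and 52.4% from 0 to 12 ng/ml FGF2. The intervals at 0 ng/ml (46.7 to 51.5%) and 12 ng/ml (50.4 to 54.4%) overlapped, although its level was lower at 12 ng/ml. Which share was the larger depended on depth. With cells thinned to 5000 UMIs, *Vim* was seen in 39.03% at 0 and 38.4% at 12 ng/ml, and without thinning in 64.3% and 71.1%. The share of the remaining genes was between 56.6% (*Anxa3*) and 88.4% (*Anxa2*) of cells with the FGFRi and between 21.2% (*Anxa2*) and 46.6% (*S100a10*) at 12 ng/ml.

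**Figure D2:**
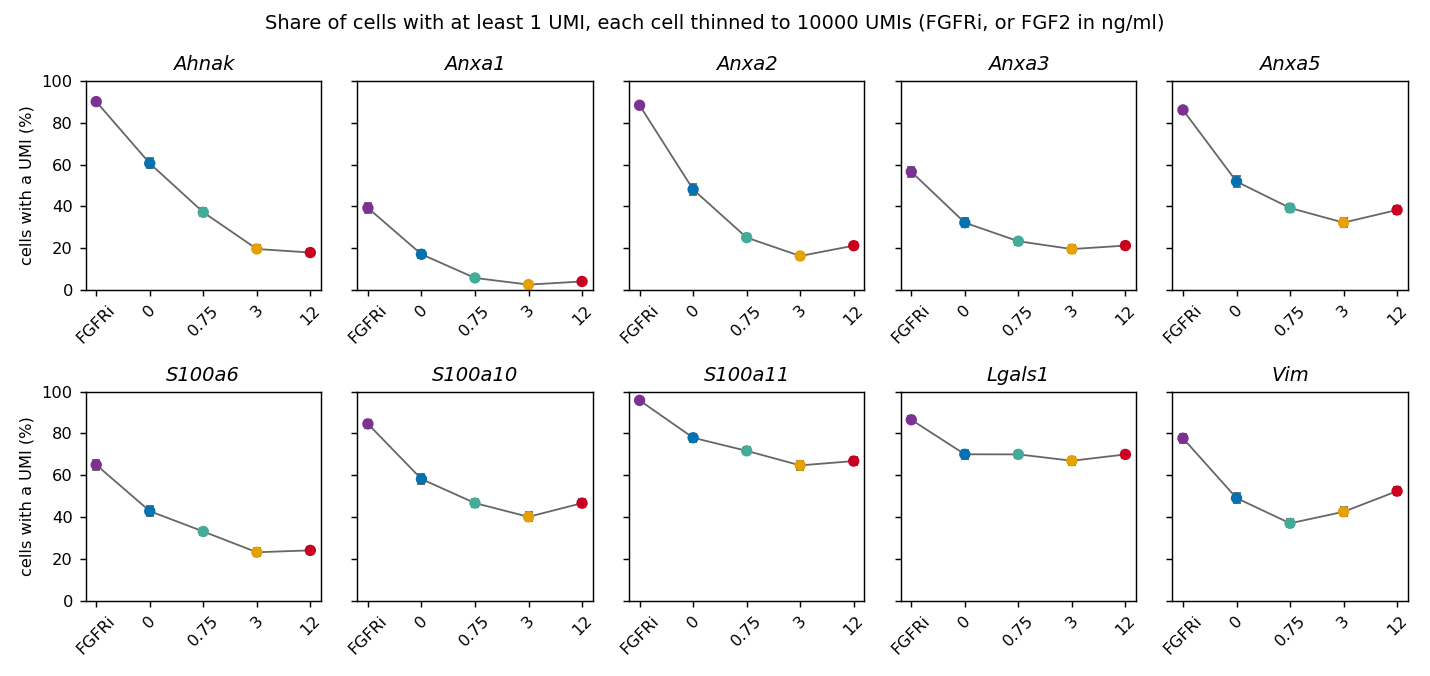
Share of cells (%) with at least 1 UMI of each gene, each cell thinned to 10000 UMIs, in the 5 libraries, with exact binomial 95% intervals. Every gene has its highest share with the FGFRi, and *Vim* is at 37.0% at 0.75 and 52.4% at 12 ng/ml FGF2.

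Within a library the genes were unevenly spread over cells. In the median cell with the FGFRi the 10 genes made up 0.558% of UMIs, and in the middle 50% of cells between 0.320% and 0.870%. The median was 0.138% at 0, 0.0697% at 0.75, 0.0494% at 3 and 0.0529% at 12 ng/ml. The cells with the most were less far apart, as the 95th percentile was 1.36% with the FGFRi and 0.8498%, 0.570%, 0.460% and 0.590% along the doses, and single cells reached 2.10% at 3 and 2.18% at 12 ng/ml. Of the FGFRi cells, 46.9% (exact binomial 95% interval 44.5 to 49.3) were above the 95th percentile of the 12 ng/ml library, as were 12.97% of cells at 0, 4.66% at 0.75 and 2.87% at 3 ng/ml. At 12 ng/ml the share was 5.03% by construction.

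**Figure D3:**
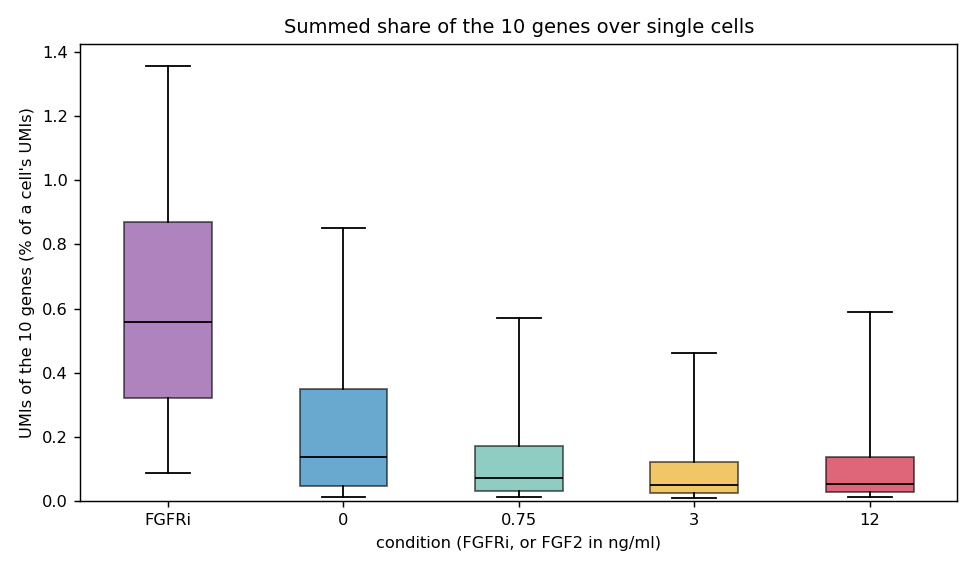
Distribution over cells of the share of UMIs (%) that came from the 10 genes together, for each library. The median is 0.558% with the FGFRi and 0.0494% at 3 ng/ml FGF2, while the upper ends overlap.

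To see which cells carried the genes, cells were divided by 2 cadherins that are not among the 10: E-cadherin (*Cdh1*) of epithelial cells and N-cadherin (*Cdh2*) of mesodermal and mesenchymal cells. Cells with a thinned UMI of *Cdh1* and none of *Cdh2* are called *Cdh1*-only, and the reverse *Cdh2*-only. There were 546, 659, 896, 398 and 345 *Cdh1*-only cells from the FGFRi to 12 ng/ml, and 561, 424, 894, 1040 and 1272 *Cdh2*-only cells. A further 115 to 194 cells per library had both and 425 to 771 neither, and a cell with no UMI may still express the gene. The epithelial gene *Epcam* was at 474 to 561 CPM in *Cdh1*-only and at 67.9 to 115 CPM in *Cdh2*-only cells. Median depths of the classes ranged from 24188 to 30109.5 UMIs.

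In the 4 libraries with a stated FGF2 dose, 9 of the 10 genes were higher in *Cdh1*-only cells, and *Vim* was higher in *Cdh2*-only cells. This counts ratios of any size whose interval left out 1, and the share of all genes was not counted that way. *Ahnak* was at 879, 426, 259, 162 and 181 CPM in *Cdh1*-only cells from the FGFRi to 12 ng/ml, and at 549, 147, 33.2, 15.1 and 18.1 CPM in *Cdh2*-only cells. The ratio of the classes was 1.60-fold (95% interval 1.56 to 1.65) with the FGFRi and 2.89-fold (95% interval 2.76 to 3.03) at 0, and 10.8-fold (95% interval 9.73 to 11.9) at 3 ng/ml. Its size at 0 ng/ml was 5.23-fold when the classes were set on unthinned counts. *Anxa1* had the widest gap, 27.98-fold (95% interval 21.97 to 36.1) at 12 ng/ml, where it was seen in 14.8% (95% interval 11.2 to 18.97) of *Cdh1*-only and 0.708% (0.324 to 1.34) of *Cdh2*-only cells thinned to 10000 UMIs. The median depths of these classes before thinning were 29628 and 27064.5 UMIs, and how much of either share free RNA gave was not measured. With at least 2 thinned UMIs of the cadherin the gap was 93.1-fold (95% interval 57.4 to 161). That setting left 152 *Cdh1*-only and 745 *Cdh2*-only cells, and few UMIs of *Anxa1* in the latter. With unthinned counts the largest log2 ratio of any member at 12 ng/ml was 4.79, beside 4.81 with thinned counts.

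The ratios of *Anxa2*, *Anxa3* and *S100a6* likewise lay above 2-fold at each dose, between 2.29-fold (*S100a6* at 0 ng/ml) and 8.43-fold (*S100a6* at 12 ng/ml). *S100a11* was between 2.77-fold and 3.97-fold higher in *Cdh1*-only cells at these doses. *Anxa1*, *Anxa5*, *S100a10* and *Lgals1* were under 2-fold at 0 ng/ml, from 1.67-fold (*Lgals1*) to 1.84-fold (*Anxa5*), but this rested on how the classes were set. With unthinned counts all 4 were past it, from 2.22-fold (*Lgals1*) to 3.37-fold (*Anxa1*), and with at least 2 thinned UMIs *Anxa1* (2.32-fold) and *S100a10* (2.35-fold) were. Past the 2-fold rule, 5, 8, 8 and 9 of the 10 genes were higher in *Cdh1*-only cells at 0, 0.75, 3 and 12 ng/ml, beside 4.42%, 5.22%, 4.01% and 4.3% of all genes. At 0 ng/ml the count was 9 with unthinned counts (6.79% of genes) and 7 with at least 2 thinned UMIs (5.93%). Of the 10, 9 reached 50 CPM in either class at 0.75 and at 3 ng/ml, and all 10 at 0 and 12 ng/ml. In the same order, 1, 1, 0 and 0 were higher in *Cdh2*-only cells (1.79%, 1.91%, 1.44% and 1.43%), and that 1 was *Vim*. The cadherin classes were not used to choose the 10 genes, but the cells are the same ones.

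*Vim* took the opposite direction in all 5 libraries. It was at 393, 173, 56.7, 120.4 and 144 CPM in *Cdh1*-only cells and at 2028, 425, 173, 180.0 and 199 CPM in *Cdh2*-only cells, from the FGFRi to 12 ng/ml. The excess in *Cdh2*-only cells was 5.16-fold (95% interval 5.02 to 5.30) with the FGFRi and 1.38-fold (95% interval 1.31 to 1.46) at 12 ng/ml. With the FGFRi, 98.4% of *Cdh2*-only cells had a UMI of *Vim* after thinning, against 52.2% of *Cdh1*-only cells. The size of the excess depended on how the classes were set. With the FGFRi it was 7.84-fold with unthinned counts and 9.89-fold with at least 2 thinned UMIs of the cadherin. At 3 ng/ml it was 1.49-fold with thinned counts, and past the rule with 4.08-fold in unthinned counts (2.03% of genes) and 2.43-fold with at least 2 thinned UMIs (2.23%).

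With the FGFRi the division of the other genes was different. *Ahnak*, *Anxa1*, *Anxa2*, *Anxa3* and *S100a11* were higher in *Cdh1*-only cells, but by no more than 1.71-fold. *Anxa5*, *S100a10* and *Lgals1* were higher in *Cdh2*-only cells, by 1.29-fold (95% interval 1.24 to 1.33), 1.24-fold (95% interval 1.20 to 1.27) and 1.77-fold (95% interval 1.73 to 1.81). *S100a6* was at 626 and 613 CPM, with an interval of the ratio that held 1. No member was past 2-fold toward *Cdh1*-only cells (3.17% of genes) and 1, *Vim*, was past it toward *Cdh2*-only cells (2.27%). With at least 2 thinned UMIs of the cadherin *Lgals1* was as well, at 2.14-fold (3.21% of genes). The median ratio of the members was 1.20-fold with the FGFRi and 2.05-fold, 3.76-fold, 3.35-fold and 4.29-fold along the doses.

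**Figure D4:**
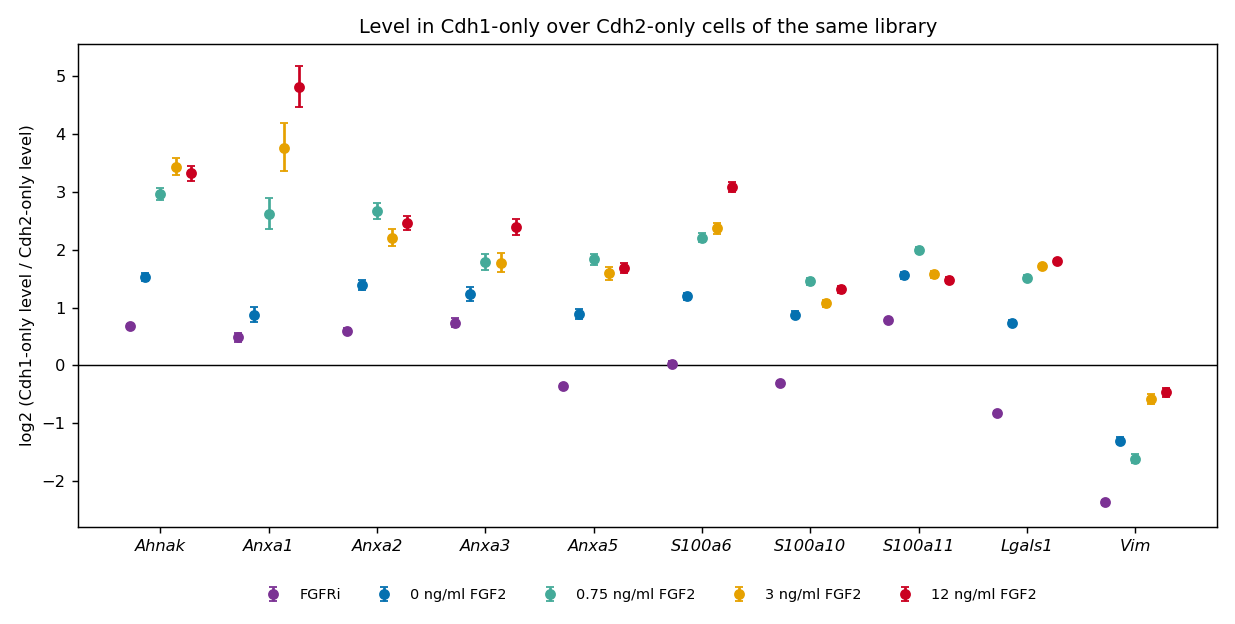
Log2 ratio of the level in *Cdh1*-only to that in *Cdh2*-only cells for the 10 genes in the 5 libraries, with exact conditional 95% intervals. *Ahnak* is at 0.68 with the FGFRi and at 3.43 at 3 ng/ml FGF2, while *Vim* is higher in *Cdh2*-only cells throughout.

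The differences between libraries were also taken within each class. From the FGFRi to 0 ng/ml, the members were lower by a median of 2.06-fold (range 1.19 to 2.34) in *Cdh1*-only cells and of 3.70-fold (range 2.32 to 4.88) in *Cdh2*-only cells. Of the 10, 6 were past 2-fold in *Cdh1*-only cells (3.04% of genes) and all 10 in *Cdh2*-only cells (10% of genes). The count in *Cdh1*-only cells was 7 with classes set on unthinned counts (3.59%) and 3 with at least 2 thinned UMIs (2.56%), while all 10 passed in *Cdh2*-only cells each way. None passed with the higher level at 0 ng/ml (1.51% and 5.26% of genes). Between 0 and 12 ng/ml the medians were 1.22-fold and 2.43-fold, with 1 gene past the rule in *Cdh1*-only cells (*Ahnak*, 1.84% of genes) and 5 in *Cdh2*-only cells (1.58% of genes). This contrast depended on how the classes were set and on the 50 CPM limit. With unthinned counts 2 passed in each class (1.83% and 0.853% of genes), and with at least 2 thinned UMIs none in *Cdh1*-only (1.78%) and 6 in *Cdh2*-only cells (1.54%). In *Cdh2*-only cells, 9 of the 10 reached 50 CPM at either dose with thinned counts, 7 with unthinned counts and 9 with at least 2 thinned UMIs. *Anxa1*, at 42.8 CPM at 0 ng/ml with thinned counts, was not eligible although its ratio was 21.2-fold. None passed with the higher level at 12 ng/ml (1.21% and 0.938%). By ratios of any size whose interval left out 1, 9 members were higher at 0 and 1 at 12 ng/ml in *Cdh1*-only cells. These counts were 7 and 1 with unthinned counts, and 5 and 4 with at least 2 thinned UMIs, where the median was 1.05-fold. The share of all genes was not counted that way. *Lgals1* was 1.56-fold (95% interval 1.52 to 1.60) higher at 12 than at 0 ng/ml in *Cdh1*-only cells, and 1.34-fold (95% interval 1.29 to 1.38) lower in *Cdh2*-only cells. The classes hold different cells at each dose, so that these values compare groups of cells and not the same cells before and after.

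Over the full range, the level of *Anxa1* in *Cdh2*-only cells was 65.2-fold (95% interval 51.7 to 83.4) higher with the FGFRi than at 12 ng/ml, and that of *Ahnak* 30.3-fold (95% interval 27.97 to 32.8) higher. For *Anxa1* it was 189-fold (95% interval 117 to 325) with at least 2 thinned UMIs of the cadherin, on 17 UMIs at 12 ng/ml. In *Cdh1*-only cells the same ratios were 3.26-fold (95% interval 2.99 to 3.56) and 4.86-fold (95% interval 4.63 to 5.09). The higher levels at 12 than at 3 ng/ml held for all 10 genes in *Cdh1*-only cells and for 7 in *Cdh2*-only cells, where *S100a6* was higher at 3 ng/ml and the intervals of *Anxa1* and *Anxa3* held 1. In *Cdh2*-only cells set on unthinned counts it held for 5, and with at least 2 thinned UMIs for 6, whereas in *Cdh1*-only cells it held for all 10 each way. These counts take ratios whose interval left out 1, and the share of all genes was not counted within the classes. Over whole libraries, 55.5% of genes were higher at 12 than at 3 ng/ml by any ratio. In the *Cdh1*-only class, *Anxa1* was at 25.4 CPM at 3 and 56.5 CPM at 12 ng/ml.

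Within libraries, most of the genes varied together over cells. Over the 45 pairs, the median Pearson correlation of log-transformed thinned counts across cells was 0.35 with the FGFRi, 0.49 at 0, 0.40 at 0.75, 0.39 at 3 and 0.44 at 12 ng/ml. The pairs with the highest median over the libraries were *S100a6* with *Lgals1* (0.58), *Anxa2* with *Lgals1* (0.57) and *Anxa2* with *S100a6* (0.57). In the FGFRi library these were at 0.45, 0.29 and 0.39, and the highest pair was *Anxa2* with *S100a11* (0.60). *Ahnak* with *Anxa2* was at 0.54, and *Anxa2* with *S100a10*, whose proteins form a complex, at 0.46. *Vim* was the loosest member, down to 0.09 with *Ahnak*, but was at 0.35 with *S100a10* and 0.32 with *Lgals1*. With the FGFRi alone, *Vim* and *Lgals1* were at 0.51. Cells of a library share its processing and the counts are sparse, so that these values are descriptions, over 1662 to 2706 cells per library.

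**Figure D5:**
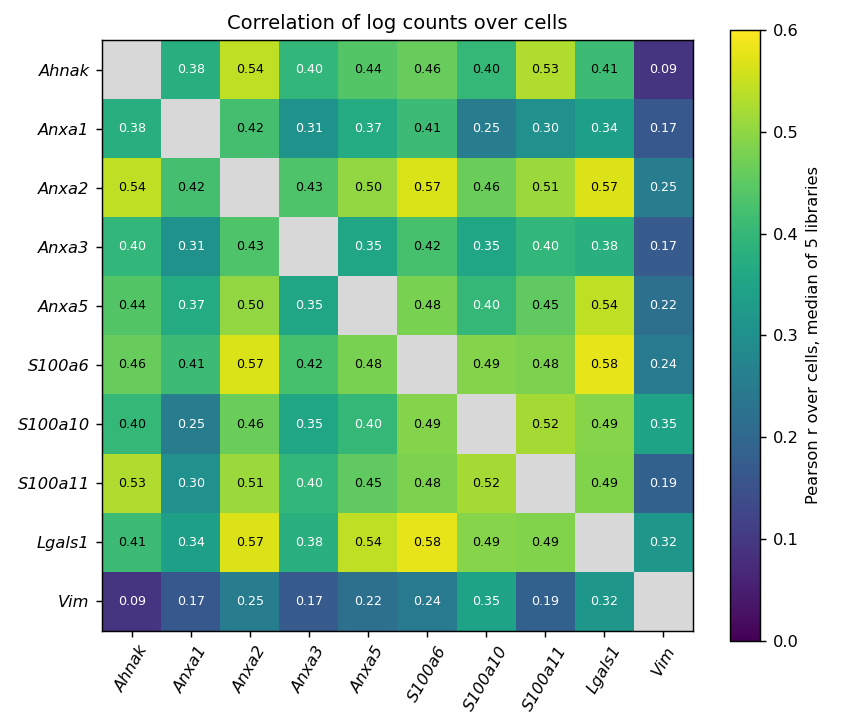
Median over the 5 libraries of the Pearson correlation across cells (log-transformed counts, thinned to 10000 UMIs) for each pair of the 10 genes. *Vim* has the lowest value (0.09 with *Ahnak*) but reaches 0.35 with *S100a10*, and *S100a6*, *Lgals1* and *Anxa2* share the highest (0.57 to 0.58).

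Among 4472 other genes seen in at least 20% of cells of every library, *Tmsb4x* had the highest median correlation with the summed counts of the 10 genes (0.697), followed by *Sparc* (0.653), *Myl6* (0.641), *Tpm1* (0.640) and *Actg1* (0.618). *Tmsb4x* encodes an actin-sequestering peptide, *Myl6* a myosin light chain, *Tpm1* a tropomyosin, *Actg1* cytoplasmic γ-actin and *Sparc* a secreted matrix-associated protein. The lowest were *Npm1* (-0.523), a nucleolar protein gene, *Ptma* (-0.490) and *Pabpc1* (-0.444), the last with -0.109 with the FGFRi. The median over all 4472 genes was -0.00466 and the 95th percentile 0.196. Over the 5 libraries, the levels most like the members' median course, by root mean square difference of centered log2(CPM + 1) values with a pseudocount of 1 among 3504 genes, were those of *Meis2* (0.0528), *Tubb2b* (0.0655), *Rhoc* (0.0711), *Sparc* (0.0808) and *Anxa6* (0.0991). *Sparc*, named by both, was at 878 CPM with the FGFRi and 337, 167, 127 and 158 CPM from 0 to 12 ng/ml.

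Other members of the same families were mostly low. Of 8 other annexins, 4 reached 5 CPM in any library. *Anxa6* was at 70.2 CPM with the FGFRi and 31.8, 14.6, 11.6 and 15.02 CPM along the doses, and was the 1 of 3 eligible that passed 2-fold between the FGFRi and 0 ng/ml. *Anxa7*, at 54.1 and 53.4 CPM in these libraries, had an interval of the ratio that held 1. The median log2 ratio of the 3 was 0.83, so that the remaining one was also higher with the FGFRi, under the limit. Of 13 other S100 genes, 5 were detected, and *S100a13* was the single one eligible, at 64.8 CPM with the FGFRi and 20.8 CPM at 0 ng/ml, a ratio of 3.12-fold (95% interval 2.92 to 3.34). Of 7 other galectin genes listed, 1 was detected.

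In related gene lists the changes were uneven. Of 12 other intermediate filament and lamin genes, 5 were eligible for the FGFRi against 0 ng/ml and 2 were higher with the FGFRi: *Nes* (151 against 60.7 CPM), the nestin gene, and *Lmna* (117 against 50.04 CPM), the gene of lamin A/C. *Krt8* and *Krt18*, the keratins of simple epithelia, were at 942 and 823 CPM and at 1349.8 and 1082 CPM, under the limit in this contrast. Between 0 and 12 ng/ml FGF2, 3 of 5 eligible genes of the list were higher at 0 (2.93% of all genes) and 0 were lower (1.21%). The list summed to 2327 CPM at 0 and 984 CPM at 12 ng/ml. Of 14 genes of membrane repair and caveolae, 5 were eligible and none passed between the FGFRi and 0 or 0 and 12 ng/ml. Under the 50 CPM limit, others of the list had larger ratios: *Myof* was at 43.6 CPM with the FGFRi and 9.45 CPM at 0 ng/ml, *Ahnak2* at 22.7 and 6.02 CPM, *Cavin1* at 12.4 and 4.82 CPM, and *Cav1* at 5.81 and 0.704 CPM. The calpain subunit gene *Capns1*, for example, was at 239 and 157 CPM with the FGFRi and at 0 ng/ml.

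Among actin stress fiber genes, *Acta2* and *Tagln* had larger ratios of the FGFRi to 0 ng/ml than any member. Of 15 genes, 14 were eligible and 5 were higher with the FGFRi than at 0 ng/ml (*Acta2*, *Tagln*, *Cald1*, *Tpm1* and *Tpm2*), beside 4.6% of all genes, with none lower. *Acta2*, the smooth muscle actin gene, was at 1008 CPM with the FGFRi and 141 CPM at 0 ng/ml, and *Tagln* at 1915 and 478 CPM. Between 0 and 12 ng/ml, 6 of 13 were higher at 0, beside 2.93% of all genes, with *Tagln* at 42.0 CPM at 12 ng/ml. Of 10 YAP and TEAD target genes, *Ccn1* was the 1 of 5 eligible that passed, at 171 CPM with the FGFRi and 75.02 CPM at 0 ng/ml.

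Markers of other cell types also differed between the libraries. Summed over 10 mesenchyme and fibroblast markers, the level was 297 CPM with the FGFRi, 66.2 CPM at 0, 39.6 CPM at 0.75, 37.1 CPM at 3 and 44.9 CPM at 12 ng/ml. *Prrx1* and *Twist1* were the 2 of these that were eligible, and both were higher with the FGFRi than at 0 ng/ml. *Prrx1* was at 161 CPM in *Cdh2*-only and 12.5 CPM in *Cdh1*-only cells of the FGFRi library. The 8 epithelial markers summed to 2836, 2559, 1900.0, 1076 and 1024 CPM, and the 10 markers of presomitic and nascent mesoderm to 29.7, 168, 415, 823 and 909 CPM, in the opposite direction. The 8 epiblast markers lay between 82.3 and 135 CPM. Their part in the levels of the 10 genes was not tested.

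The 8 endoderm markers summed to at most 4.19 CPM in any library, the 8 of hemato-endothelium to at most 7.51 CPM, with *Hbb-bh1* and *Hba-x* at 0 in every library, and the 8 of macrophages and leukocytes to at most 6.17 CPM. A count of 0 allows up to 0.0627 CPM in the FGFRi library, the shallowest.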

How the data were processed

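Single-cell libraries were made with the 10x Chromium 3′ kit v3.1. The authors aligned the reads to mm10 with Cell Ranger, and deposited raw UMI counts per gene and barcode with no normalization. The matrix headers name version 5.0.1, and the methods an earlier one. Whether the counting used strand is not given in the sources used here. Following the methods, cells needed at least 2500 genes and at most 10% mitochondrial UMIs. Doublets were not called, and the deepest 5% of cells were left out as an alternative. Counts were summed per library and divided by all UMIs. Exact Poisson, conditional and binomial 95% intervals cover counting error only. No test between conditions was run, as each had 1 library.

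The members, gene lists and tests were chosen with earlier results of these data known. Named genes were the 10 members, both cadherins, the 5 most similar genes over libraries, the 5 most and 3 least correlated over cells, and up to 4 genes per list with the largest ratio between the FGFRi and 0 ng/ml among those with at least 50 CPM in either. *Krt8*, *Tpm2*, *Myof*, *Ahnak2*, *Cav1*, *Cavin1* and the single cell type markers named fall outside this rule and were chosen after their values were seen. Alternatives covered TMM scaling (edgeR 4.0.16, R 4.3.3), weighting of cells, filters, shared barcodes, thinning, the cadherin classes and the limits of the rule of size. Python 3.11.15, NumPy 2.4.6, SciPy 1.17.1, pandas 2.3.3 and Matplotlib 3.10.9 were used, and the steps were tested on simulated data.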

Additional observations from a re-analysis of the deposited data

Results flagged for a closer look

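For 3 of the 10 genes the log2 ratio of *Cdh1*-only to *Cdh2*-only cells had the opposite sign with the FGFRi from that in each of the other 4 libraries. *Anxa5* was at -0.36 with the FGFRi and at 0.88 to 1.83 with 0 to 12 ng/ml FGF2. *S100a10* was at -0.31, against 0.88 to 1.45. *Lgals1* was at -0.83, against 0.74 to 1.80. These differences were not tested, since each condition was 1 library. The mesenchymal markers *Prrx1*, *Twist1* and *Col1a1* were at 161, 172 and 48.1 CPM in the *Cdh2*-only cells of the FGFRi library and at 8.72, 30.9 and 1.81 CPM in those at 0 ng/ml, and their part in the change of sign was not tested.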

How the results depend on the processing

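No paired analysis was possible because each condition had 1 library. The 10 log2 ratios of the FGFRi to 0 and of 0 to 12 ng/ml gave 120 values under alternatives, of which 42 moved by more than their counting interval and 0 reversed. The largest move was that of *Ahnak* between 0 and 12 ng/ml, from 2.28 to 2.56 without the 5% deepest cells. The median for the FGFRi over 0 ng/ml, 1.22, became 1.27 with every cell given the same weight, 1.17 with at most 5% mitochondrial UMIs and 1.29 without the deepest cells. With a ratio of at least 1.5, 8 in place of 5 members passed between 0 and 12 ng/ml, beside 6.4% in place of 2.93% of all genes. There, 6 passed with every cell given the same weight and without the deepest cells, as *S100a11* rose from 0.97 on the log2 scale to 1.02 and 1.001. The median difference in share of cells between the FGFRi and 0 ng/ml was 25.4 percentage points thinned and 20.1 without thinning. The cause of these moves was not tested. *S100a10* lay so near the limit that 7 in place of 8 members passed between the FGFRi and 0 ng/ml under TMM, with the 5% mitochondrial limit and with all barcodes. Without the shared barcodes, 8 members passed between the FGFRi and 0 and 5 between 0 and 12 ng/ml. With classes set on unthinned counts, 42 in place of 41 of the 50 pairs of gene and library were higher in *Cdh1*-only cells. These are ratios of any size whose interval left out 1, not counted for all genes. The median log2 ratio of the classes at 0 ng/ml was then 1.64 in place of 1.04, and with at least 2 thinned UMIs of the cadherin that of *Anxa1* at 12 ng/ml was 6.54 in place of 4.81. Depth limits genes of a few CPM per class, such as *Anxa1* in *Cdh2*-only cells.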
